A study of Rattus norvegicus with 24 samples.

Results

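A set of 10 enzymes of the antioxidant defence was followed in the retina of rats made diabetic with streptozotocin (STZ), a toxin that destroys the insulin-producing beta cells of the pancreas. They were Hmox1, Nqo1, Prdx1, Txnrd1, Sod1, Sod2, Cat, Gpx1, Gclc and Gclm, out of 4013 genes that could be named on the array. A probe belonged to a gene when the transcript record printed for it in the array files carried that gene's symbol in RefSeq, which gave 13 probes for the 10 genes. Each of the 10 genes had at least 1 probe bright enough to be tested. Total RNA of retinas was hybridised to 24 CodeLink rat whole genome arrays, 1 sample per array. The 4 groups held 6 arrays each, from male Sprague Dawley rats at 1 month after injection (1 month STZ and 1 month control) and at 3 months after injection (3 month STZ and 3 month control). Diabetic rats had received 1 intraperitoneal injection of streptozotocin and no insulin afterwards, and controls had received the vehicle. The series lists the 6 samples of a group as biological replicates.

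Reactive oxygen species are disarmed in steps. Superoxide dismutases turn superoxide into hydrogen peroxide, and catalase, glutathione peroxidases and peroxiredoxins turn peroxide into water. Glutathione and thioredoxin supply the electrons, while heme oxygenase and quinone reductase act on heme and on quinones. Many of these genes are targets of the transcription factor NRF2, which binds antioxidant response elements, and oxidative stress has long been discussed as a part of diabetic retinopathy.

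The antioxidant response element has the core letters TGACNNNGC, where N is any base. These letters were searched on both strands of the RefSeq promoter windows (assembly GRCr8), each from 250 bases before to 50 bases after a transcription start. Of 33469 windows for all rat genes, 12.1% held the letters. Windows were listed for 9 of the 10 genes and not for Hmox1. The core was found in a window of 4 genes, Sod2, Gclm, Prdx1 and Txnrd1, and in each of them it read on the strand opposite to the gene. No match was present in these windows for Sod1, Cat, Gpx1, Gclc or Nqo1. The 4 matches are shown with their surroundings, because they are the only stretches in which members of the set shared these letters. Each is written 5′ to 3′ on the gene's strand, with the core in capitals.
Sod2, chr1:50050169-50050229, minus strand: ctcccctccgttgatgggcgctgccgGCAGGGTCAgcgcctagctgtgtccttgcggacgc
Gclm, chr2:213031937-213031997, plus strand: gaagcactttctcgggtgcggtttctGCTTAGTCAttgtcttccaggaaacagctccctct
Prdx1, chr5:135383745-135383805, plus strand: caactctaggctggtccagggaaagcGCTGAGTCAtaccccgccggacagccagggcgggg
Txnrd1, chr7:22755948-22756008, minus strand: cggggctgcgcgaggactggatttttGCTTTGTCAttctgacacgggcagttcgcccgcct
The core began at position -35 from the start in Sod2, at -172 in Gclm, at -135 in Prdx1 and at -78 in Txnrd1, where the other of its 2 windows had none. The match is a property of the letters alone and was not a measure of binding.

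Levels are given as scaled intensity, the brightness of a probe divided by the median brightness of the rat probes on the same array, so that 1 is a typical probe. Fold changes are on the log2 scale, STZ minus control. A difference was called when its limma p-value, adjusted by the Benjamini-Hochberg method over 22025 tested probes, was below 0.05 and the change was at least 1.2-fold. The 2 time points differed in the shape of the arrays. The interquartile range of log2 intensity was 3.36 to 3.67 on the 12 arrays of the 1 month groups, but 1.48 to 2.23 in 3 month controls and 2.07 to 2.70 in 3 month STZ samples. Median brightness was 149 to 308 in 3 month controls and 125 to 164 in 3 month STZ samples, so both measures moved with diabetes at 3 months. Over the tested probes the log2 change had a median of 0.44 at 3 months, and of 0.01 at 1 month. Array 3 month control 2 correlated least with its group, with a median correlation of 0.842 against 0.957 to 0.973 for the other 5. Rod photoreceptor markers were present on every array, with a summed level of 179 to 503.

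Hmox1 had the highest rise of the 10 genes at 3 months. It encodes heme oxygenase 1, the inducible enzyme that degrades heme to biliverdin, iron and carbon monoxide. Scaled intensity in the 3 month controls was 0.976, 0.508, 0.566, 0.803, 0.655 and 0.761. In the 3 month STZ samples it was 5.4, 0.912, 2.68, 6.45, 6.45 and 11.4. Of the diabetic retinas 5 were above every control, while 3 month STZ 2 lay within the control range. The log2 fold change was 2.63 ± 0.36 (SE), or 6.18-fold, with a limma adjusted p of 3.99e-05. The rise was visible before any scaling, with deposited intensities of 113 to 232 in controls and 139 to 1640 in STZ samples. The spread within the diabetic group was wide, with an SD of 1.28 on the log2 scale against 0.35 in the 3 month controls. In whole retina, more cells of a type and more RNA per cell cannot be told apart.

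The level of Hmox1 in the diabetic retinas followed the amount of lens transcripts on the same array. Lens markers (8 tested genes, crystallins such as Crybb1 and Crygd with Lim2, Lgsn and Lenep) had a summed level of 130 to 325 in 3 month controls and 407 to 827 in 3 month STZ samples, and 7 of the 8 were called higher, where 50.5% of all tested probes were. After quantile normalization 3 of the 8 were called higher, beside 24.6% of all probes. The diabetic array lowest for Hmox1, 3 month STZ 2, had the lowest lens sum of its group at 407. The array highest for Hmox1, 3 month STZ 6, had the highest lens sum at 827. Across the 6 diabetic arrays Pearson's r on log2 values was 0.93 (exact permutation p = 0.00833, two-sided, 0.0333 after adjustment over the 4 groups) and Spearman's rho was 0.94 (exact permutation p = 0.0167, adjusted 0.0667). Leaving out the 2 arrays farthest from the median lens sum left r at 0.87 over 4 arrays in this group. In the other groups r was 0.15 for 3 month controls, 0.85 for 1 month controls and 0.35 for 1 month STZ samples, with adjusted exact permutation p-values of 0.781, 0.128 and 0.485. Without their own 2 farthest arrays these values became -0.80, -0.55 and 0.81, so r in these groups depended on which arrays were included. Over all 24 arrays, as deviations from the group means, r was 0.36. This relation was examined after the values had been seen. The adjusted p-values cover the 4 groups only, and not the other members and marker lists. Among all members and marker lists over the 24 arrays, the highest r was 0.82, for Gclc with endothelium markers.

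Of the 1 month arrays, 1 month control 5 and 1 month STZ 2 had the highest lens sums of their groups, at 502 and 479. They were also the highest of their groups for Hmox1, at 0.702 and 1.39. Array 3 month STZ 3, with a lens sum of 475, had 2.68, above both. Array 3 month STZ 2, with a lens sum of 407, had 0.912, below the 1.39. Arrays of the time points differed in shape, so no conclusion is drawn from this comparison. With the log2 lens sum of each array as a covariate, an alternative added after the data were seen, the 3 month change of Hmox1 was 2.10 with an adjusted p of 0.0171. Under the same covariate Cat had -0.70 (adjusted p = 0.112), Nqo1 1.09 (0.0947) and Prdx1 0.67 (0.0997), and Hmox1 was the 1 member that kept its call. Over the whole array 1179 probes were called higher and 42 lower with this covariate, against 11130 and 781 without it. The lens sums of the 3 month groups did not overlap, at 130 to 325 in controls and 407 to 827 in STZ samples. This covariate therefore cannot separate lens transcripts from diabetes, and no conclusion is drawn from it.

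**Figure D1:**
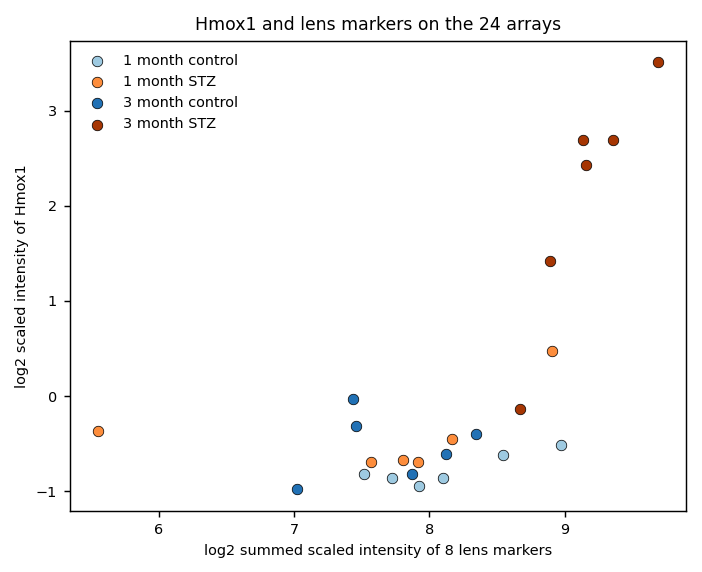
Log2 scaled intensity of Hmox1 (vertical axis) against the log2 summed scaled intensity of 8 lens markers (horizontal axis), 1 point for each of the 24 arrays, coloured by group. The 6 points of the 3 month STZ group rise together, from Hmox1 at 0.912 with a lens sum of 407 to Hmox1 at 11.4 with a lens sum of 827, while arrays of other groups with lens sums up to 502 stay at or below 1.39.

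Nqo1 rose as well. It encodes NAD(P)H quinone dehydrogenase 1, which reduces quinones and is a standard NRF2 target. Its 3 month control values were 0.340, 0.0476, 0.399, 0.471, 0.511 and 0.398, and its 3 month STZ values were 0.885, 0.889, 0.820, 0.564, 0.858 and 0.985. All diabetic arrays were above all controls, which held for 9.49% of the tested probes. The log2 fold change was 1.49 ± 0.35 (SE), or 2.81-fold, with a limma adjusted p of 0.00185. The size depended on 3 month control 2, where the probe was lowest, and without that array it was 0.97 with an adjusted p of 0.000202. It was 3.47 when the 5th percentile of each array was subtracted before scaling and 0.99 with array weights. The probe was dim, its median scaled intensity of 0.655 lying just above the limit of 0.554 for testing. Before scaling the groups overlapped, at 14.3 to 123 in controls and 91.0 to 145 in STZ samples.

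Prdx1 and Txnrd1 belong to the thioredoxin branch. Prdx1 encodes peroxiredoxin 1, which reduces peroxides with electrons from thioredoxin. Its 3 month controls measured 4.1, 1.88, 5.30, 6.13, 4.35 and 5.48, against 5.83, 7.96, 9.94, 6.31, 8.61 and 12 in the 3 month STZ samples. The ranges overlapped only where 3 month STZ 1 lay below 3 month control 4. The log2 fold change was 0.94 ± 0.22 (SE), with a limma adjusted p of 0.00187. Txnrd1 encodes thioredoxin reductase 1, the cytosolic enzyme that recharges thioredoxin. Its brighter probe measured 1.04 to 3.10 in 3 month controls and 1.84 to 3.10 in 3 month STZ samples, a log2 fold change of 0.56 ± 0.20 (SE) with an adjusted p of 0.0249. That call was kept in 19 of the 24 fits that left out 1 array. It was lost without 3 month control 2 (0.40, adjusted p = 0.0884) and without 3 month control 1, 3 month control 3, 3 month STZ 3 or 3 month STZ 5, where the change was 0.51 to 0.52. Before scaling this probe had 311 to 498 in controls and 297 to 482 in STZ samples. A dimmer Txnrd1 probe, with a median of 0.337 over the 24 arrays, did not pass the brightness limit of 0.554. On the 3 month arrays its group medians were above that limit, at 0.774 in controls and 0.671 in STZ samples. At 1 month they were 0.0908 and 0.0584. The dimmer probe pointed the other way at 3 months, with a log2 change of -0.26 ± 0.26 (SE).

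After median scaling Sod1 and Sod2 rose by similar amounts. Sod1 encodes the copper and zinc superoxide dismutase of the cytosol and Sod2 the manganese enzyme of mitochondria. Sod1 was 16, 9.39, 12.8, 17.0, 20.9 and 27.9 in the 3 month controls and 20.5, 28.8, 25.9, 24.4, 32.4 and 27.3 in the 3 month STZ samples. The controls spread more widely than the diabetic retinas, and the groups overlapped. The log2 fold change was 0.69 ± 0.19 (SE), with a limma adjusted p of 0.00470. The second Sod1 probe gave 0.59 ± 0.17 (SE) and an adjusted p of 0.00594. Sod2 measured 3.81, 1.79, 3.24, 4.47, 4.01 and 5.58 in 3 month controls and 5.49, 6.08, 6.01, 4.35, 7.11 and 6.38 in 3 month STZ samples. Its log2 fold change was 0.69 ± 0.19 (SE), with an adjusted p of 0.00439. Before scaling the groups overlapped for both genes. The brighter Sod1 probe had 2810 to 4720 in controls and 3370 to 4390 in STZ samples. Sod2 had 537 to 997 in controls and 703 to 926 in STZ samples. After quantile normalization the changes were 0.01 for Sod1 and 0.23 for Sod2, and neither was called.

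Cat moved the opposite way. It encodes catalase, the heme enzyme of peroxisomes that splits hydrogen peroxide. The 3 month controls measured 2.54, 3.82, 2.08, 2.23, 2.10 and 2.12, and the 3 month STZ samples measured 1.62, 1.74, 1.33, 1.54, 1.23 and 1.16. All diabetic arrays were below all controls, a pattern found for 0.681% of the tested probes. The log2 fold change was -0.77 ± 0.24 (SE), or a level 0.587 times that of controls, with a limma adjusted p of 0.00966. Without 3 month control 2, the highest array, it was -0.64 with an adjusted p of 0.0330. The deposited intensities did not overlap either, at 316 to 1140 in controls and 154 to 266 in STZ samples. The 3 month STZ arrays were dimmer as a whole, with a group median of 148 against 232 in controls. Unscaled values of a typical probe are therefore lower in STZ samples. With the brightness of the array as a covariate Cat was not called, at -0.51 with a limma adjusted p of 0.129.

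The remaining 3 members missed the threshold at 3 months, although with array weights all 3 passed, at 0.47 for Gpx1, 0.35 for Gclc and 0.61 for Gclm. Under those weights 12901 of the 22025 probes were called higher, against 11130 without them. Gpx1, the cytosolic glutathione peroxidase, measured 2.30 to 3.85 in 3 month controls and 2.88 to 5.34 in 3 month STZ samples, a log2 difference of 0.40 with an adjusted p of 0.0529 and a 95% interval of 0.04 to 0.76. It passed in 8 of the 24 fits that left out 1 array (1 month control 5, 1 month STZ 5 or 6, 3 month control 1 or 2, and 3 month STZ 1, 3 or 4), with changes of 0.40 to 0.49. Gpx1 also passed where only probes above the limit on all 24 arrays were tested, with an adjusted p of 0.0487. There 8990 of 15176 probes were called higher. Gclc, the catalytic subunit of glutamate-cysteine ligase that makes the first bond of glutathione, measured 0.892 to 2.54 against 1.54 to 3.16, a difference of 0.42 with an adjusted p of 0.0635. It passed without 3 month control 6 (0.55) and without 3 month STZ 4 (0.53). Without 3 month control 2 the Gclc change fell to 0.24, with an adjusted p of 0.226. Gclm, the modifier subunit of the same ligase, had control values of 1.97, 6.76, 1.71, 1.90, 1.95 and 1.82 and STZ values of 3.63, 2.70, 3.33, 2.27, 2.82 and 2.92. Its single high control was 3 month control 2. With that array the log2 difference was 0.33 (adjusted p = 0.226), and without it 0.64 (adjusted p = 0.00167). The second Gclm probe gave 0.36 with an adjusted p of 0.0714.

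**Figure D2:**
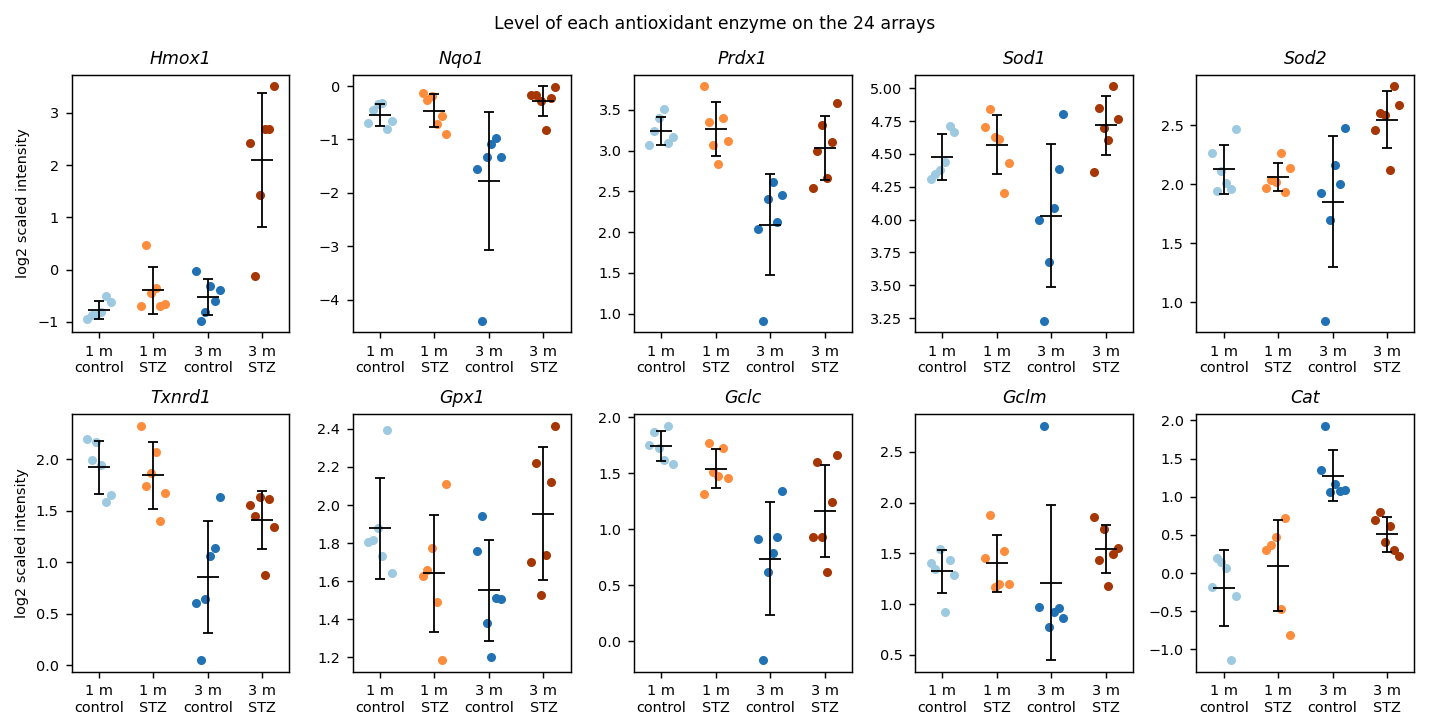
Log2 scaled intensity of each of the 10 genes by its brightest tested probe (vertical axis, own scale in each panel) in the 4 groups of 6 arrays. Points are arrays and bars are the mean ± SD, and at 3 months Hmox1 and Nqo1 are higher and Cat is lower in STZ samples, while single low or high points of the 3 month controls belong mostly to array 3 month control 2.

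At 3 months 6 of the 10 genes were therefore called higher and 1 was called lower. Of all tested probes 50.5% were called higher and 3.55% lower, so the share of higher calls among the enzymes was near the background of these arrays. Of the 2812 named genes with 1 tested probe each, 1574 were called higher and 97 lower. Relative to the median change of all probes, the log2 differences were 2.18 for Hmox1, 1.05 for Nqo1, 0.50 for Prdx1, 0.25 for Sod2, 0.24 for Sod1 and 0.11 for Txnrd1. They were -0.02 for Gclc, -0.04 for Gpx1, -0.11 for Gclm and -1.21 for Cat. Among the log2 changes of all tested probes Hmox1 stood at percentile 100, Nqo1 at 99.4, Prdx1 at 94.1 and the other 3 risers between 63.3 and 78.8, and Cat stood at 0.758.

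After quantile normalization, which gives all arrays the same distribution, 24.6% of probes were called higher and 7.04% lower. Hmox1 (2.96, adjusted p = 6.67e-06), Nqo1 (2.18, adjusted p = 4.11e-05) and Cat (-1.22, adjusted p = 0.00054) kept their calls. Prdx1 was at 0.46, Txnrd1 at 0.26, Sod2 at 0.23, Gclc at 0.15, Sod1 at 0.01, Gpx1 at -0.13 and Gclm at -0.21, and none of these 7 passed. The sign of Gpx1 and that of the brighter Gclm probe thus turned with the normalization. The second Gclm probe kept its sign, at 0.45 with an adjusted p of 0.0971. The second Sod1 probe turned to -0.06, with an adjusted p of 0.757. The spread of log2 intensity, which moved with diabetes at 3 months, was also used as a covariate. Hmox1 then had a log2 change of 2.58 with an adjusted p of 0.273, Cat had -0.70 with 0.583, and no probe of the array was called at 3 months.

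**Figure D3:**
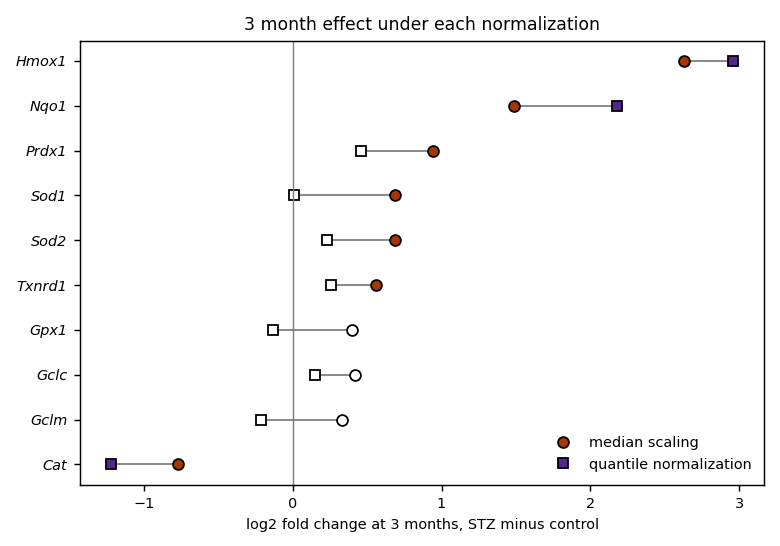
Log2 fold change at 3 months, STZ minus control (horizontal axis), for the 10 genes after median scaling (circles) and after quantile normalization (squares), with filled symbols for called differences. Hmox1, Nqo1 and Cat are filled under both, whereas Prdx1, Sod1, Sod2 and Txnrd1 are filled after median scaling alone.

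At 1 month none of the 10 genes was called. The background was 0.00908% of probes, or 2 probes of the array, with 927 probes at an unadjusted p below 0.05, and the unequal-variance test of the study's methods also called 0 members at either threshold. Hmox1 measured 0.519 to 0.702 in 1 month controls and 0.617 to 1.39 in 1 month STZ samples, a log2 difference of 0.37 with a 95% interval of -0.36 to 1.11. Cat measured 0.454 to 1.14 against 0.572 to 1.65, a difference of 0.30 with an interval of -0.18 to 0.78. Gpx1 was at -0.24, Gclc at -0.20, and the 6 others lay between -0.08 and 0.10. STZ and control arrays overlapped for every member, and 0.545% of probes did not overlap. In the fits that left out 1 array the 1 month change ran from 0.20 to 0.43 for Hmox1. For Cat it ran from 0.11 to 0.48, and neither gene was called in any of these fits.

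**Figure D4:**
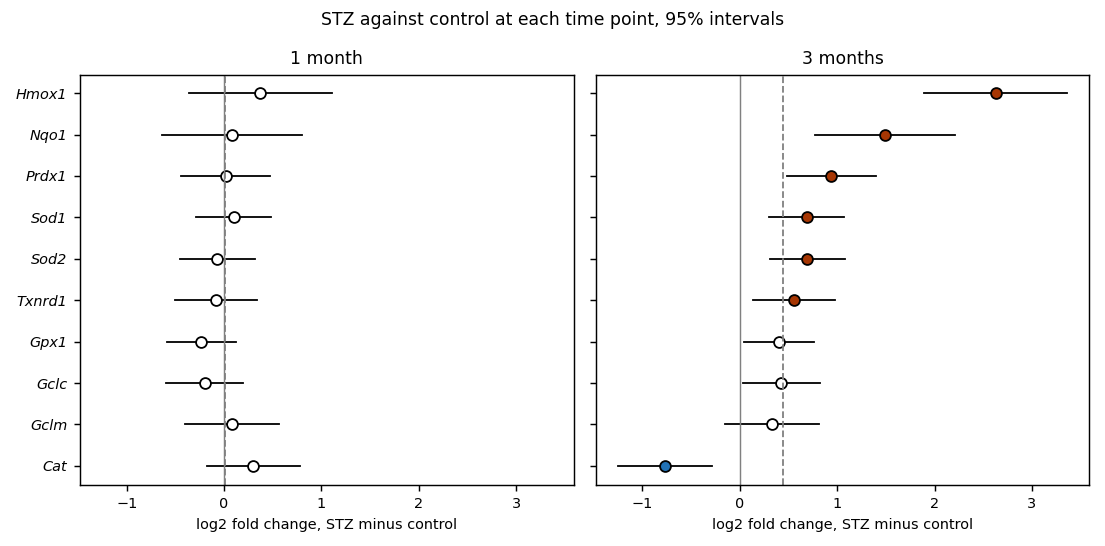
Log2 fold change, STZ minus control (horizontal axis), of the 10 genes at 1 month and at 3 months, as limma estimates with 95% intervals. Filled points were called, the solid line marks 0 and the dashed line the median change of all tested probes, which is 0.01 at 1 month and 0.44 at 3 months.

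The change between time points was tested as the 3 month effect minus the 1 month effect. It was called for Hmox1 (2.25 ± 0.51, SE, adjusted p = 0.017), Cat (-1.07 ± 0.33, adjusted p = 0.0369), Prdx1 (0.93 ± 0.31, adjusted p = 0.0462) and Sod2 (0.76 ± 0.26, adjusted p = 0.0496), against a background of 15.5% of probes. Of the 2812 named genes with 1 tested probe each, 549 were called. The median of this difference over all tested probes was itself 0.44. Nqo1 had 1.41 with an adjusted p of 0.0518 and Sod1 had 0.59 with 0.0975, although the second Sod1 probe passed at 0.72 (adjusted p = 0.0422). These calls depended on single arrays. In the 24 fits that left out 1 array, Hmox1 passed in 24, Cat in 12, Prdx1 in 5 and Sod2 in 4, and the number of members called ran from 1 to 9. It stayed within 1.5 times the count of 4 only without 3 month control 4, 3 month control 5 or 3 month STZ 1, and the 9 calls came without 3 month control 6. In that fit 9230 of the 22025 probes were called for the difference, against 3414 with all arrays.

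Levels also differed between the control groups of the 2 time points. In 3 month controls Cat was higher than in 1 month controls by 1.48 on the log2 scale, or 2.78-fold, with a limma adjusted p of 4.77e-06. The 3 month STZ values of Cat, 1.16 to 1.74, lay between the 1 month controls at 0.454 to 1.14 and the 3 month controls at 2.08 to 3.82. Sod1, Gclc, Nqo1, Prdx1 and Txnrd1 were called lower in 3 month controls, with log2 differences of -0.45, -1.01, -1.24, -1.15 and -1.07. The background of this comparison was 13.2% of probes higher and 55.6% lower, and the median difference over all probes was -0.52. The second Sod1 probe was called lower too, at -1.03. After quantile normalization the brighter Sod1 probe turned to 0.22 and was not called, and the second stayed lower at -0.41 with an adjusted p of 0.0079, while Cat (1.92), Gclc (-0.58), Nqo1 (-2.16), Prdx1 (-0.58) and Txnrd1 (-0.62) kept their calls. Age and the set of animals and arrays cannot be told apart here. The dim Txnrd1 probe ran against the brighter one, at 0.0510 to 0.149 in 1 month controls and 0.587 to 1.04 in 3 month controls.

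Other genes of the antioxidant network gave the setting. Of 124 listed genes 67 had a probe and 52 were tested. At 3 months 32 of the 52 passed as higher and 0 as lower, beside 50.5% and 3.55% of all probes. Their median change was 0.54, against 0.44 for all probes and 0.50 for the 2812 named genes with 1 tested probe each. Of those named genes 1574 were called higher and 97 lower. None of the 52 was called at 1 month. After quantile normalization 14 passed as higher and 1 as lower, beside 24.6% and 7.04% of all probes, and the median was 0.21 against 0.16. Of the named genes 762 then passed as higher and 177 as lower, with a median of 0.17.

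The counts by list are given after median scaling and then after quantile normalization, to be read beside the 50.5% and 24.6% of all probes called higher. Among superoxide and peroxide enzymes 9 and then 2 of 10 tested genes were called higher, led by Prdx4, a peroxiredoxin of the endoplasmic reticulum (log2 change 1.05), and Prdx5 (0.86). In the thioredoxin and glutaredoxin system 2 and then 0 of 4 were called higher, Txn1, thioredoxin itself (0.88), and Glrx, glutaredoxin (0.70), and Glrx3 was called lower after quantile normalization (-0.76). In glutathione synthesis and recycling 3 and then 2 of 7 were called higher, led by Gss, glutathione synthetase, the enzyme after the Gclc and Gclm ligase (1.11, adjusted p = 6.4e-05), and Ggt5 (0.55). Gss stayed called after quantile normalization at 0.97. Among glutathione transferases 5 and then 3 of 9 were called higher, led by Gsta1 (1.17) and the microsomal Mgst1 (1.14).

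Other NRF2 targets and regulators had 5 and then 3 of 9 called higher. Ephx1, the microsomal epoxide hydrolase, had 1.41 and Osgin1, an oxidative stress-induced growth inhibitor, had 1.25, and both stayed called after quantile normalization at 1.27 and 1.86. Nfe2l2, which encodes NRF2 itself and was picked out after its value was seen, had 0.78 after median scaling and 0.33 without a call after quantile normalization. Of the enzymes that supply NADPH, 3 and then 0 of 4 were called higher, led by Tkt (0.87) and Taldo1 (0.71) of the pentose phosphate pathway. Of oxidases and nitric oxide synthases 4 and then 3 of 5 were called higher, led by Maob, monoamine oxidase B (0.87), and Ncf1, the p47 subunit of the phagocyte NADPH oxidase (0.83). Of metallothioneins and uncoupling proteins 1 of 4 was called higher under both scalings, Ucp2 (0.88).

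**Figure D5:**
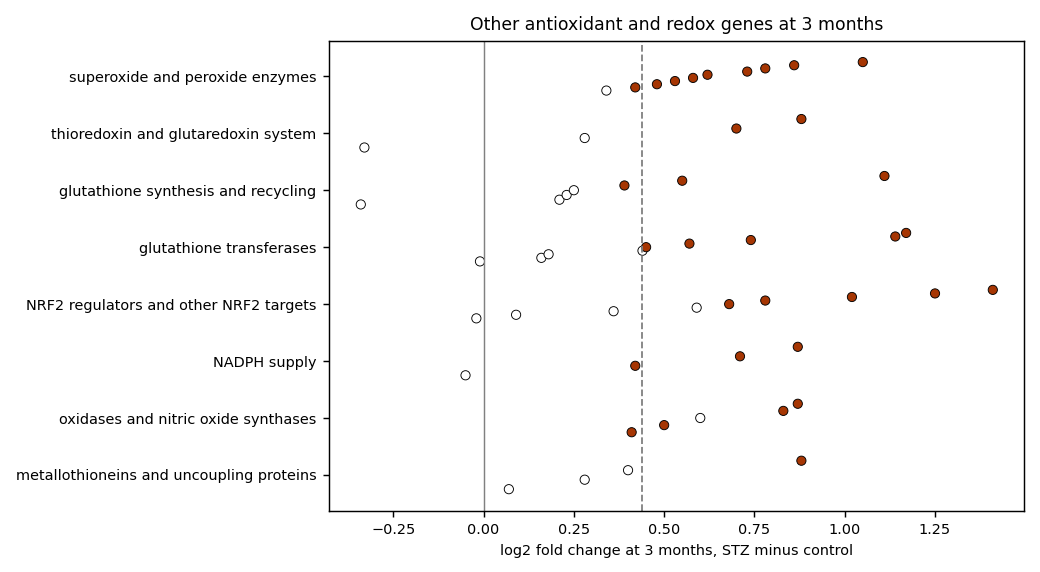
Log2 fold change at 3 months, STZ minus control (horizontal axis), of 52 other antioxidant and redox genes in 8 lists, 1 point per gene, filled where called. The solid line marks 0 and the dashed line the median change of all tested probes, and 32 points are filled, all to the right of 0.

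Markers of cell types moved in the same comparison, and their part in the changes of the enzymes was not tested. Counts are again given after median scaling and then after quantile normalization, beside 50.5% and 24.6% of all probes. Müller glia and astrocyte markers were called higher in 4 and then 3 of 7 genes, among them Vim (1.53) and Gfap (1.29), with a summed level of 50.6 to 142 in 3 month controls and 138 to 186 in 3 month STZ samples. Microglia and macrophage markers were called higher in 2 of 4 genes under both, C1qb (1.25) and Itgam (0.64), with sums of 4.82 to 9.77 and 7.31 to 9.09. Endothelium had 2 and then 0 of 2 called higher, with sums of 5.14 to 17.7 and 11.4 to 22.8. Rod photoreceptor markers had 2 of 5 higher after median scaling and 0 higher with 2 lower after quantile normalization, beside 3.55% and 7.04% of all probes called lower, and their sums were 179 to 407 and 321 to 503. Erythrocyte markers had 1 of 3 higher under both, with sums of 2.65 to 3.97 and 2.54 to 3.12. Of the retinal pigment epithelium 0 of 2 were called under either, and 3 month STZ 1 had a sum of 97.2 where the other arrays of its group had 2.32 to 8.5.

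Within groups the enzymes did not all vary as 1 block, although part of them varied together. Deviations from the group means were correlated over the 24 arrays as a description, and the arrays share their scaling. Over the 45 pairs of members the median r was 0.08. Among Sod1, Sod2, Gclc, Nqo1, Prdx1 and Txnrd1 every pair lay between 0.48 and 0.80. Nqo1 and Prdx1 had the highest value at 0.80, followed by Sod1 and Sod2 at 0.77, and Gclm and Nqo1 had the lowest at -0.75. Array 3 month control 2 was extreme in its group for both genes of each of these pairs. It was the highest for Gclm and the lowest for Nqo1, Prdx1, Sod1 and Sod2. Hmox1 was at 0.17 or below with each of the other 9. The genes with the patterns closest to Hmox1 were Ramp2 (r = 0.78) and the lens gene Lgsn (0.74). For Nqo1 they were Acsm2 (0.91) and Skap2 (0.90), for Prdx1 Cyb5r4 (0.87) and Mtor (0.84), and for Txnrd1 Tdg and Tmsb15b2 (0.91 each). For Sod1 they were Gna15 and Rgs14 (0.92 each), and for Sod2 Cx3cl1 (0.96) and Psmb3 (0.95). For Cat they were Dld and Me1 (0.75 each), for Gpx1 Glyatl2 (0.71), for Gclc Scd2 (0.92) and Nr1h2 (0.91), and for Gclm Steap3 (0.83).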

How the data were processed

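Total RNA of rat retinas was amplified to biotin-labelled cRNA and hybridised to 1-colour CodeLink arrays by the authors. The authors deposited, for each array, a background-subtracted intensity per probe and the same intensity divided by 1 constant per array close to its median, together with a series-level table of the second values. Their CodeLink software had excluded defective spots and subtracted the background. Replicates were not pooled. The study's list of animals gives fewer 1 month controls for the arrays than the 6 deposited, so whether each of these 6 is a separate rat is not settled here. The deposited intensity was divided by the median over rat probes on that array, floored at 0.01 and taken to log2. Probes were tested when their median scaled intensity over the 24 arrays exceeded the 35th percentile of all probes (0.554) and each group had at least 4 values, which left 22025 of 33849 rat probes. Symbols came from RefSeq by accession (4675 of 5469 probes with a RefSeq accession). The brightest tested probe stood for a gene.

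One limma model (limma 3.58.1, R 4.3.3) of the 4 groups gave STZ against control at each time point, their difference and the control groups against each other. The threshold was an adjusted p of 0.05 with at least 1.2-fold change (no fold limit for the difference). The fitting step was tested on simulated data. The methods' test, with unequal variances and an unadjusted threshold of 0.01 with 1.2-fold, served as an alternative. Further alternatives were other normalizations, filters, floors, covariates, weights, a replicate block and leaving out each array. No array duplicated another. The number of arrays limits the precision.

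The members and the lists were chosen with earlier results of these data known. All probes of the members are described. In each other list the 2 most changed genes called at 3 months in each direction, every gene called lower or called at 1 month, and for each member the 2 genes of most similar pattern are named. For Gpx1 and Gclm, 1 of these genes each is not reported here.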

Additional observations from a re-analysis of the deposited data

Results flagged for a closer look

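In 8 of the 40 sets of 6 arrays checked (4 groups of each gene), 1 array lay apart from the other 5, where chance alone marks about 1 set in 20. The value given is the gap to the nearest array as a share of the whole range, on the log2 scale. Array 3 month control 2 was apart for 4 genes, at 0.901 for Gclm (highest), 0.828 for Nqo1 (lowest), 0.672 for Cat (highest) and 0.66 for Prdx1 (lowest). Without this array the 3 month change was 0.64 for Gclm, 0.97 for Nqo1, -0.64 for Cat and 0.71 for Prdx1. Array 1 month control 5 was apart for Gpx1 (highest, 0.685) and for Cat (lowest, 0.632). Array 1 month STZ 2 was highest for Hmox1 (0.715), and 3 month STZ 4 was lowest for Nqo1 (0.67).

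The test of the difference between the 3 month and 1 month effects called 4 genes. The log2 differences were 2.25 for Hmox1, 0.93 for Prdx1, 0.76 for Sod2 and -1.07 for Cat. The test called 15.5% of all probes, and the median difference over all probes was 0.44. In the 24 fits that left out 1 array Hmox1 passed in 24, Cat in 12, Prdx1 in 5 and Sod2 in 4.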

How the results depend on the processing

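The count of 6 genes called higher at 3 months was 2 after quantile normalization, over all arrays or within each time point, 3 with scaling to the median of the tested probes and 3 with the brightness covariate. It was 1 with the methods' test at either threshold, 1 with the lens marker covariate, which was chosen after seeing the data, and 0 with the spread covariate. It was 9 with array weights and ran from 5 to 8 when 1 array was left out. The 1 gene called lower, Cat, was not called (0 genes) with the brightness, spread or lens covariate, nor where only probes above the limit on all 24 arrays were tested, which left out its probe, and it was called in all 24 fits without 1 array. At 1 month 0 genes were called under every alternative. The 4 genes with a difference between time points became 10 with array weights (10325 of 22025 probes called, against 3414). The count was 2 without a filter (3474 of 33849) and 2 with only probes above the limit on all 24 arrays (2705 of 15176). It was 1 with scaling to the tested probes (328 of 22025) and 1 with the brightness covariate (1228 of 22025). It was 0 with the spread covariate and 0 with the lens covariate, where 0 probes were called. Without 1 array it was 1 to 9, with 759 to 9230 probes called. The cause was not tested.

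The replicate block gave 6 genes higher, 1 lower, 0 at 1 month and 2 with a difference (Hmox1 and Cat). Of all 22025 probes it called 10840 higher, 782 lower, 1 at 1 month and 2496 for the difference. Arrays of the same number deviated together with correlations of -0.24 to 0.25, so the numbers were not taken to pair the samples.

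The second Sod1 probe turned sign at 3 months after quantile normalization, at -0.06. For the probes that stood for genes, signs turned at 3 months for Gpx1 (-0.13 under both quantile normalizations), Gclm (-0.21 and -0.22 under these, and -0.04 when scaled to the tested probes), Gclc (-0.18) and Txnrd1 (-0.26), the last 2 with the spread covariate. At 1 month, where changes were near 0, they turned for Sod1 (-0.03 with the brightness covariate, -0.02 over the mean of its probes), Nqo1 (-0.04 with array weights) and Prdx1 (-0.11 with array weights, 0.00 with the brightness covariate). Without 1 array the 1 month change ran from -0.11 to 0.00 for Sod2, -0.02 to 0.13 for Gclm, -0.09 to 0.10 for Prdx1 and -0.17 to 0.01 for Txnrd1. Over all probes, the number called higher at 3 months was 11130 in the reported fit, 5413 after quantile normalization, 2827 with scaling to the tested probes, 1788 with the adjusted methods' test and 0 with the spread covariate. Dim probes such as that of Nqo1 sit near the testing limit.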
